A study of Mus musculus with 4 samples.

Results

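Malat1, Neat1, Kcnq1ot1, Atxn1, Hip1 and Kmt2a are 6 of the 17561 genes measured in CD8+ T cells from mouse bone marrow. The first 3 are long noncoding RNAs that stay in the nucleus, and the other 3 are messenger RNAs of genes that span long stretches of the genome. These genes were chosen by their measured values in these same cells, in which they stood high in a cluster named TIGIT+ Teff, so their levels there are a description and were not tested. In that cluster Malat1 reached 6564 CPM (counts of molecules per 1000000 counted), against 2271 to 2984 CPM in the 7 other clusters, and Kmt2a reached 342 CPM against 75.5 to 130 CPM. All 6 transcripts had their highest level in TIGIT+ Teff in each of the 4 libraries.

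The study asked how blockade of the inhibitory receptor TIGIT and the drug lenalidomide act on T cells after stem cell transplantation (SCT) for myeloma, a cancer of plasma cells. Recipients on a C57BL/6 background, WT or transgenic for CRBN (a modified cereblon that lets mouse cells respond to lenalidomide), received bone marrow and T cells, and the study's methods describe female mice of 8 to 12 weeks that carried Vk*MYC myeloma. The 4 groups were TIGIT inhibition + vehicle, isotype control + lenalidomide, TIGIT inhibition + lenalidomide, and isotype control + vehicle, with antibody from the day of transplant and lenalidomide or vehicle from day 14. CD8+ T cells were sorted 4 weeks after SCT from 5 mice pooled per group, and each pool gave 1 single-cell library made with a chemistry that reads the 5′ ends of transcripts. The files number the libraries 1 to 4, and those numbers could not be tied to the treatments from the labels, so no treatments were compared. The 8 clusters carry the names the authors deposited. They are Tn (naive), Tcm (central memory), transitory Teff, GzmB+ Teff, GzmA+ Tex, TIGIT+ Teff, TIM-3+ Tex and cycling, where Teff stands for effector and Tex for exhausted cells.

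Most messenger RNAs leave the nucleus soon after they are made, but some long noncoding RNAs act at their place of synthesis. Malat1 gathers in nuclear speckles, the stores of splicing factors, and Neat1 is the scaffold around which paraspeckles form. Kcnq1ot1 is made from the paternal copy of an imprinted locus and silences neighbouring genes on its own chromosome. Atxn1 encodes ataxin-1, which represses transcription together with Capicua, Hip1 encodes an adaptor that links clathrin to actin during endocytosis, and Kmt2a encodes MLL1, a methyltransferase for lysine on histone H3.

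The transcripts end in different ways, which bears on how a method that captures poly(A) tails can prime on them. Malat1 and long Neat1 carry no ordinary poly(A) tail and are held by a triple helix between U-rich stretches and an A-rich tract, whereas short Neat1 is polyadenylated. The stretches below come from the GENCODE M21 transcript sequences (build GRCm38) and are shown because the first 3 mark these ends and the last holds the longest run of A in any member. All lie on the minus strand and are written 5′ to 3′ with T for U. In the first 2, capitals mark the 16 letters that Neat1 and Malat1 share, part of the U-rich side of the helix. In short Neat1, capitals mark the polyadenylation signal AATAAA.
Neat1, last 90 bases of the long transcript, chr19:5824708-5824797: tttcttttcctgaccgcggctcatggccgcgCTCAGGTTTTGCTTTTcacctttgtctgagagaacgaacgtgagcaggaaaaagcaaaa
Malat1, chr19:5795975-5796064: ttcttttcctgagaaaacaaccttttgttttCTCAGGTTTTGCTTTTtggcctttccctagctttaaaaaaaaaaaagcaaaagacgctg
Neat1, last 60 bases of the short transcript, chr19:5842307-5842366: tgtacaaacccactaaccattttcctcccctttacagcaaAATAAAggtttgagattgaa
Kcnq1ot1, longest run of A, in capitals, chr7:143226925-143227005: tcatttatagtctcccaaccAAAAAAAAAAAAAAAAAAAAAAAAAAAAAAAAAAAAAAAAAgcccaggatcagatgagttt
In the annotation, 328 bases follow the shared letters in Malat1 and 43 follow them in Neat1. The run of 41 As in Kcnq1ot1 begins at base 69565 of a transcript of 93092 bases, and Kcnq1ot1 held 8 runs of at least 12 As. Malat1, Atxn1 and Kmt2a held 1 such run each in their longest transcripts, and Neat1 and Hip1 held none. Over 7598 expressed genes, 11.9% of longest transcripts held such a run. Whether priming took place at these runs was not tested.

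All 6 genes lie on the minus strand of GRCm38. Malat1 (ENSMUSG00000092341, chr19:5795690-5802672) and Neat1 (ENSMUSG00000092274, chr19:5824708-5845478) are neighbours annotated as intergenic noncoding RNAs. Malat1 spans 6983 bases and is exonic throughout. Kcnq1ot1 (ENSMUSG00000101609, chr7:143203458-143296549) is annotated as antisense and lies within Kcnq1. Atxn1 (ENSMUSG00000046876, chr13:45549755-45965008) spans 415254 bases, longer than 99.5% of the 7604 genes with at least 10 CPM over all cells, and 3.35% of its span is exonic. Hip1 (ENSMUSG00000039959, chr5:135406531-135545120) spans 138590 bases, of which 9.35% is exonic, and Kmt2a (ENSMUSG00000002028, chr9:44803355-44881296) spans 77942 bases, of which 21.4% is exonic. By span these are not all long genes, since 17.7% of expressed genes are shorter than Malat1 and 46.8% are shorter than Neat1. By longest transcript they are, since between 90.6% (Malat1) and 99.97% (Kcnq1ot1) of expressed genes have a shorter one. Atxn1 overlaps Gmpr and Kmt2a overlaps an antisense gene, both on the opposite strand, and the sources used here state neither whether the counting used strand nor whether it included introns.

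RefSeq promoter sequences (build GRCm38.p6, 250 bases before to 50 after a start) were found for 4 of the 6 genes, with 5 starts. Those of Malat1 and Kmt2a are shown because this pair had the most similar pattern across clusters and libraries (r = 0.88, explained below) of the members with 1 start each. Capitals mark, on either strand, the letters TGACG of a cAMP response element, the letters GGGCGG bound by SP and KLF factors, and the letters GGAAG of ETS sites.
Malat1, chr19:5802623-5802922, minus strand: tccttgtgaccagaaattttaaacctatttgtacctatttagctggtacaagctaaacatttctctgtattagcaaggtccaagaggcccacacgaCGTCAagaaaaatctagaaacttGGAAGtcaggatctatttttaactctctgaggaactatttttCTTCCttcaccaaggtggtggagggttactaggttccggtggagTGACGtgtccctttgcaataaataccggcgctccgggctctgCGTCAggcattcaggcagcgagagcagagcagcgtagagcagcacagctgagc
Kmt2a, chr9:44881240-44881539, minus strand: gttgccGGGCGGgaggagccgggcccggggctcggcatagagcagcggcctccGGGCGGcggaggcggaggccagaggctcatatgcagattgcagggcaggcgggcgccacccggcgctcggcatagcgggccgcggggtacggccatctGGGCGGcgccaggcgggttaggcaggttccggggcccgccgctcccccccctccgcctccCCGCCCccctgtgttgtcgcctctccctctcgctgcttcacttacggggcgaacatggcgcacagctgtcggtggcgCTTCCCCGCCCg
The Malat1 window has 47.0% G and C and 10 CpG pairs, and the Kmt2a window has 75.7% and 36, against medians of 52.7% and 7 over 32851 promoters. Malat1 held 3 matches to the first, which 20.8% of promoters hold, and none to the second. Kmt2a held 5 matches to the second, which 35.7% of promoters hold, and none to the first. Both held the ETS letters, as 71.4% of promoters do. None of the 5 windows held the AP-1 letters TGANTCA (7.81% of promoters hold them), the RUNX letters TGTGGT (16.8%) or the TATA box letters TATAAA (13.6%). These matches describe letters and are not evidence of binding.

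The 4 libraries held 11754 cells, between 1725 and 4237 each, and 106039690 molecules (UMIs), with a median of 7115 to 7669 UMIs per cell. TIGIT+ Teff held 816 cells, which came unequally from the libraries (436, 50, 271 and 59 cells in libraries 1 to 4). These cells had a median of 2.87% mitochondrial UMIs, against 1.62% to 2.22% in the other clusters, and 18.6% of them lay above 5%, against at most 5.13% elsewhere. A T cell receptor was called in 44.6% of them, and in 41.0% to 85.5% elsewhere. All 8 CD8 T cell markers checked were detected in TIGIT+ Teff, with a summed level of 7670 CPM (library range 6988 to 7778), although the authors had kept only cells with Cd3e or Cd3g and Cd8a. The 12 macrophage markers summed to 436 CPM there (352 to 452), against 229 to 424 CPM in the other Teff clusters and TIM-3+ Tex and 2134 CPM in GzmA+ Tex. The defining marker Lyz2 was at 6.70 CPM in TIGIT+ Teff. The 10 plasma and B cell markers summed to 138 CPM (126 to 187), the 11 erythroid and neutrophil markers to 29.3 CPM (3.49 to 49.4) and the 6 NK cell markers to 598 CPM (495 to 637). In all, 56 barcodes occurred in 2 libraries each, on 112 cells.

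Where in the cell the transcripts lay was not measured. All 6 members passed the minimum of 10 CPM, and over all cells they differed widely in level. Malat1 stood at 2976 CPM, rank 70 among expressed genes and 0.298% of all UMIs. Kmt2a stood at 121 CPM and the other 4 between 52.6 CPM (Hip1) and 62.5 CPM (Atxn1). Divided by exonic length, the levels were 426 CPM per kb for Malat1, 7.27 for Kmt2a, 4.49 for Atxn1, 4.06 for Hip1, 2.77 for Neat1 and 0.582 for Kcnq1ot1, although UMIs counted at 5′ ends need not grow with length.

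**Figure D1:**
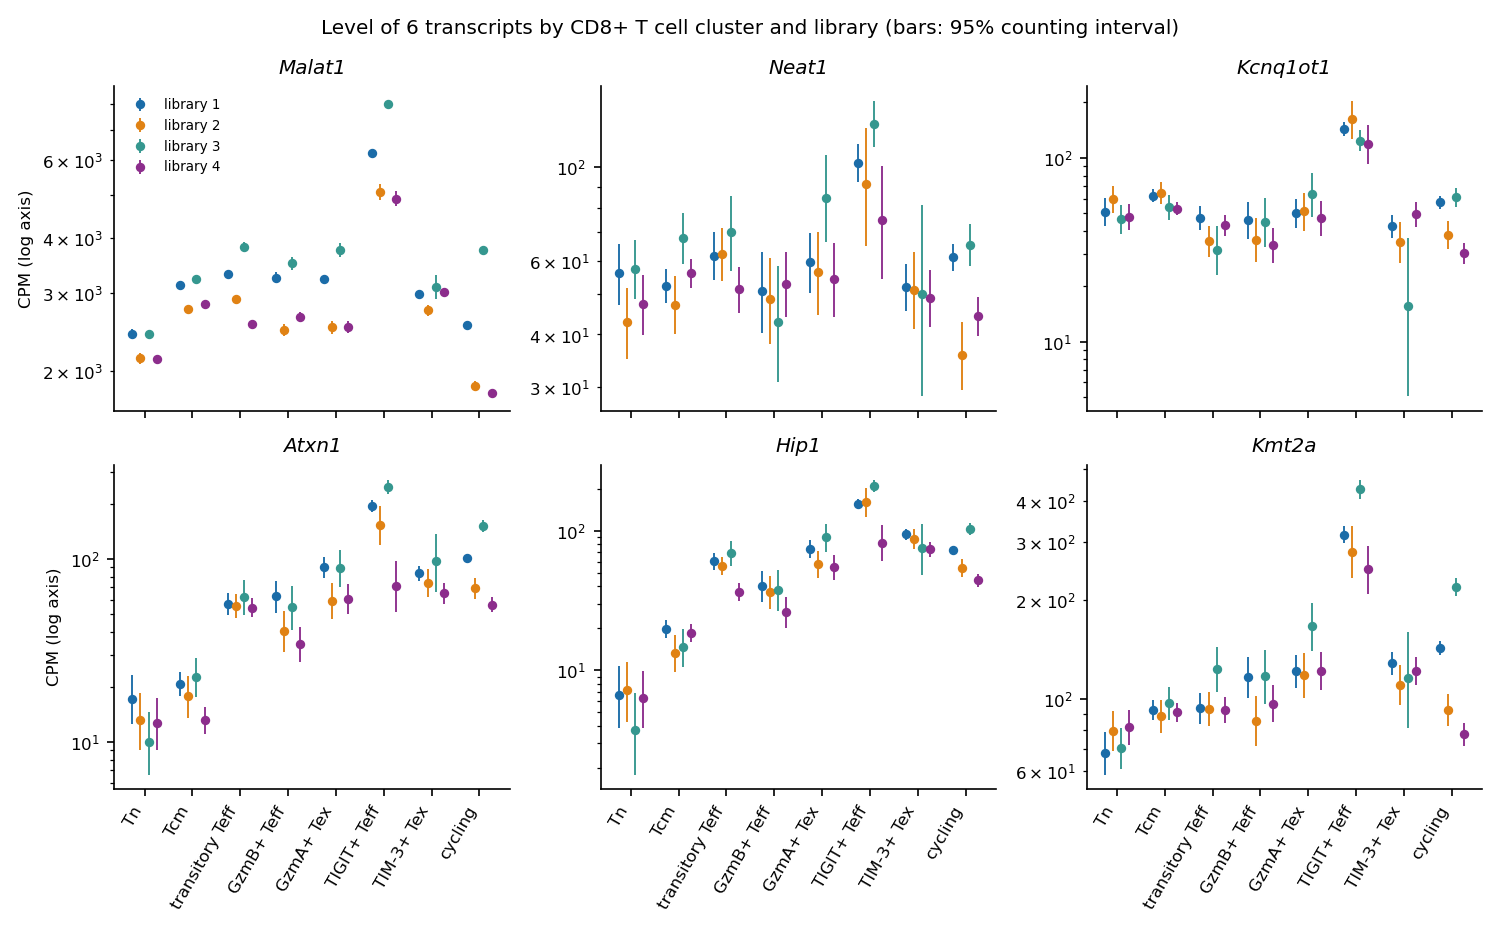
Level of each of the 6 transcripts (CPM, log axis) in the 8 clusters, with 1 point per library and 95% counting intervals. TIGIT+ Teff holds the highest point of each library in all 6 panels, and Hip1 and Atxn1 are lowest in Tn.

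Malat1 is the most abundant of the 6 transcripts. Its level in TIGIT+ Teff was 6229, 5064, 8027 and 4904 CPM in libraries 1 to 4, and the next cluster in each library reached 3321, 2904, 3812 and 3011 CPM. The lowest library of TIGIT+ Teff thus stood above the highest library of any other cluster. In sum the level was lowest in Tn, at 2127 to 2424 CPM over libraries, but in libraries 2 and 4 it was lower in cycling cells, at 1849 and 1788 CPM. Per cell, TIGIT+ Teff held 51.6 Malat1 UMIs on average, against 18.4 in Tn and 33.9 in cycling cells. The share of a cell's UMIs given to Malat1 had a median of 0.670% in TIGIT+ Teff, with 10% of cells under 0.294% and 10% over 1.78%. It exceeded 1% in 27.5% of these cells, and in 0.224% to 4.46% of cells elsewhere.

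Neat1, the other nuclear body RNA, was nearly flat across the remaining clusters. It measured 103, 91.2, 127 and 74.9 CPM in TIGIT+ Teff of libraries 1 to 4, against 61.6, 62.2, 84.8 and 55.9 CPM in the next cluster. The 95% counting interval lay above that of the next cluster in 2 of the 4 libraries, and in the other 2 the intervals overlapped. In the 7 other clusters the summed libraries gave 49.8 to 60.6 CPM, and no pair of neighbours in the order of clusters had library ranges that kept apart.

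Kcnq1ot1 differed from the other members in its order of clusters. It measured 143, 162, 124 and 119 CPM in TIGIT+ Teff of libraries 1 to 4, against 62.3, 64.6, 63.6 and 52.8 CPM in the next cluster, and the groups did not overlap. Tcm came second with 57.7 CPM and Tn stood at 50.8 CPM, above transitory Teff (41.2 CPM), GzmB+ Teff (38.8 CPM) and TIM-3+ Tex (42.6 CPM), although these ranges overlapped between libraries. In library 3 the TIM-3+ Tex value of 15.6 CPM rested on 5 UMIs in 31 cells.

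Atxn1 and Hip1 were low in naive and central memory cells and higher in effector and exhausted cells. Atxn1 stood at 13.2 CPM in Tn (10.1 to 17.2 over libraries), 17.5 CPM in Tcm, 45.7 to 75.9 CPM in the other Teff and Tex clusters and 92.3 CPM in cycling cells. Tcm and GzmB+ Teff, its next neighbour, did not overlap between libraries (13.2 to 22.6 against 34.4 to 62.5 CPM). In TIGIT+ Teff Atxn1 measured 195, 153, 248 and 71.4 CPM in libraries 1 to 4, and the next cluster reached 101, 74.0, 151 and 64.9 CPM. Library 4 stood apart, since its value lay within the counting error of its next cluster.

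Hip1 had the steepest gradient of the 6. It stood at 5.96 CPM in Tn (3.72 to 7.19 over libraries), 17.8 CPM in Tcm (13.3 to 19.8) and 33.7 CPM in GzmB+ Teff (26.2 to 40.2), and these 3 steps did not overlap. TIM-3+ Tex reached 85.4 CPM, 14.3-fold the level of Tn, with a log2 ratio of 3.84 (95% interval 3.48 to 4.23) and 3.53 to 4.33 in single libraries. In TIGIT+ Teff Hip1 measured 156, 160, 211 and 81.9 CPM in libraries 1 to 4, and the next cluster reached 94.2, 87.3, 103 and 73.3 CPM. In library 4 that difference was within counting error. Against Tn, TIGIT+ Teff was 27.8-fold higher for Hip1 and 14.9-fold higher for Atxn1. For Malat1, Neat1 and Kcnq1ot1 the same ratio was 2.89, 2.10 and 2.69, and for Kmt2a it was 4.54.

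Kmt2a, the methyltransferase gene, measured 316, 280, 434 and 247 CPM in TIGIT+ Teff of libraries 1 to 4, against 142, 118, 219 and 122 CPM in the next cluster. The TIGIT+ Teff libraries stood above every library of the other clusters. In sum Tn was lowest, at 68.4 to 81.8 CPM over libraries, and did not overlap Tcm, at 88.5 to 96.6 CPM. Cycling cells varied most between libraries, from 77.8 CPM in library 4, below Tn there, to 219 CPM in library 3, and library 3 gave the highest cycling value for all 6 members.

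The share of cells with at least 1 UMI depends on depth, so each cell was also thinned to 2500 UMIs. No cluster here is known to lack these genes, so the share that free RNA gives could not be read from one. In TIGIT+ Teff, thinned shares were 24.6% for Neat1, 27.7% for Kcnq1ot1, 39.6% for Atxn1, 38.5% for Hip1 and 54.9% for Kmt2a (unthinned, 48.7%, 50%, 68.5%, 64.2% and 83.2%). In the other clusters the thinned shares reached at most 14.5%, 12.4%, 21.02%, 19.1% and 26.9% for the same genes. Hip1 was found in 1.49% of thinned Tn cells and Atxn1 in 3.80%. Malat1 was found in 100% of thinned TIGIT+ Teff cells and in 94.5% to 98.9% elsewhere.

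TIGIT+ Teff was then set against the other 4 Teff and Tex clusters summed, which are transitory Teff, GzmB+ Teff, GzmA+ Tex and TIM-3+ Tex. Since the clusters were made from the expression of these cells and the members were chosen from this contrast, the ratios describe and do not test. Summed over libraries, Kcnq1ot1 was 3.18-fold higher (log2 ratio 1.67, 95% interval 1.55 to 1.79), Atxn1 3.11-fold (1.64, 1.54 to 1.74) and Kmt2a 3.11-fold (1.64, 1.56 to 1.71). Hip1 was 2.74-fold higher (1.45, 1.35 to 1.56), Malat1 2.22-fold (1.15, 1.14 to 1.17) and Neat1 1.93-fold (0.95, 0.82 to 1.08). These intervals, like all others here, cover counting error only. Thus 5 of the 6 members were at least 2-fold higher, where 13.8% of 7604 genes were. Only Kcnq1ot1 and Kmt2a were at least 2-fold higher in each library, where 2.33% of the genes were. The members' median log2 ratio was 1.55, against 0.30 over all genes. Among cells with 1.5% to 2.5% mitochondrial UMIs alone, a range chosen after seeing the data, the median was 1.11 and 3 of the 6 were at least 2-fold higher.

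**Figure D2:**
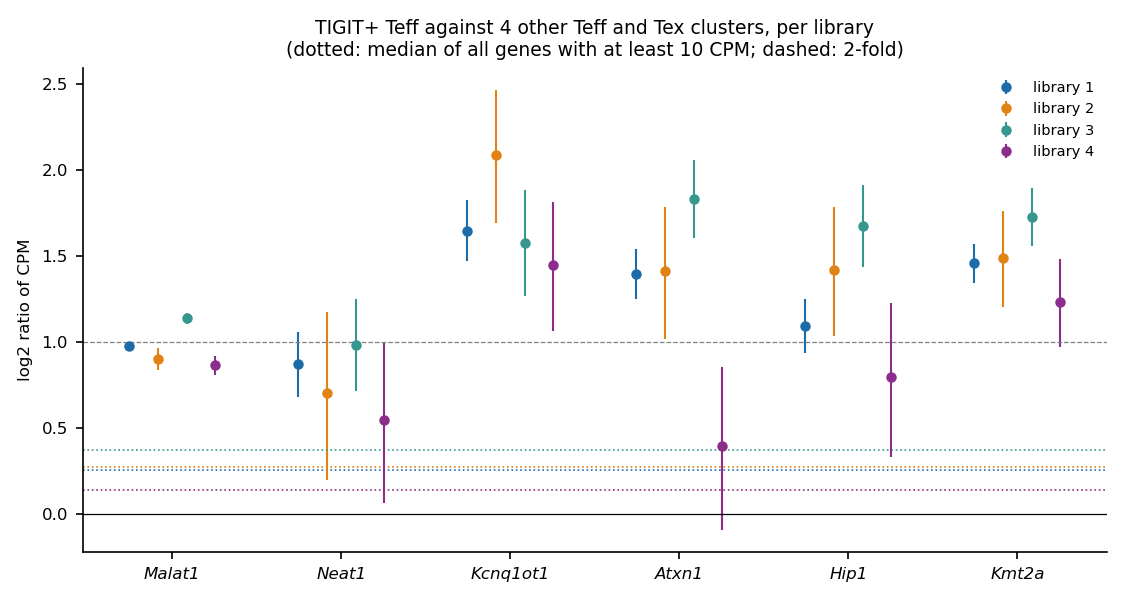
Log2 ratio of TIGIT+ Teff to the other 4 Teff and Tex clusters for each member, with 1 point per library and 95% counting intervals. Dotted lines give each library's median over 7604 genes and the dashed line marks 2-fold; library 4 holds the lowest value for all 6 members, and for Hip1 and Atxn1 it lies well below the other libraries.

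The size of the ratio differed between libraries. Kcnq1ot1 ranged from 1.45 to 2.09 on the log2 scale, Kmt2a from 1.23 to 1.73 and Hip1 from 0.79 to 1.67. Atxn1 ranged from 0.40 in library 4, where the interval of -0.09 to 0.85 includes no difference, to 1.83 in library 3. Malat1 ranged from 0.87 to 1.14 and Neat1 from 0.55 to 0.98. The number of members at least 2-fold higher was 4, 4, 5 and 2 in libraries 1 to 4, and the members' median was 1.24, 1.41, 1.62 and 0.83, beside all-gene medians of 0.25, 0.28, 0.37 and 0.14. Libraries 2 and 4 held 50 and 59 TIGIT+ Teff cells. Weighting the libraries equally gave a mean of 0.97 for Malat1 and 1.25 for the members' median. The value for Malat1 then lay under 2-fold, and libraries 1 and 3, which held most TIGIT+ Teff cells, also had the highest Malat1 levels in the other 4 clusters (3166 and 3649 CPM, against 2714 and 2691 CPM).

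Long genes as a whole stood higher in TIGIT+ Teff, so each member was set against genes of like span. The 7604 genes were ranked by span and cut into 10 classes of 760 or 761. The class median of the log2 ratio was -0.24 for the shortest genes and 0.90 for the longest. Atxn1 and Hip1 fell in the longest class and exceeded 97.8% and 92.1% of it. Kcnq1ot1 and Kmt2a fell in the class before it (median 0.83) and exceeded 98.4% and 98.2% of it. Malat1 fell in the class after the shortest (median -0.09) and exceeded 98.8% of it, and Neat1 exceeded 92.4% of its class (median 0.22). The positions of Malat1 and Neat1 changed most with the measure of length. By exonic bases Malat1 fell in class 8 of the 10, counted from the shortest (median 0.64), and exceeded 89.2% of it. By the same measure Neat1 fell in the longest class (median 1.005) and exceeded 44.8% of it. Since the members were chosen for high values, these positions describe where they lie.

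**Figure D3:**
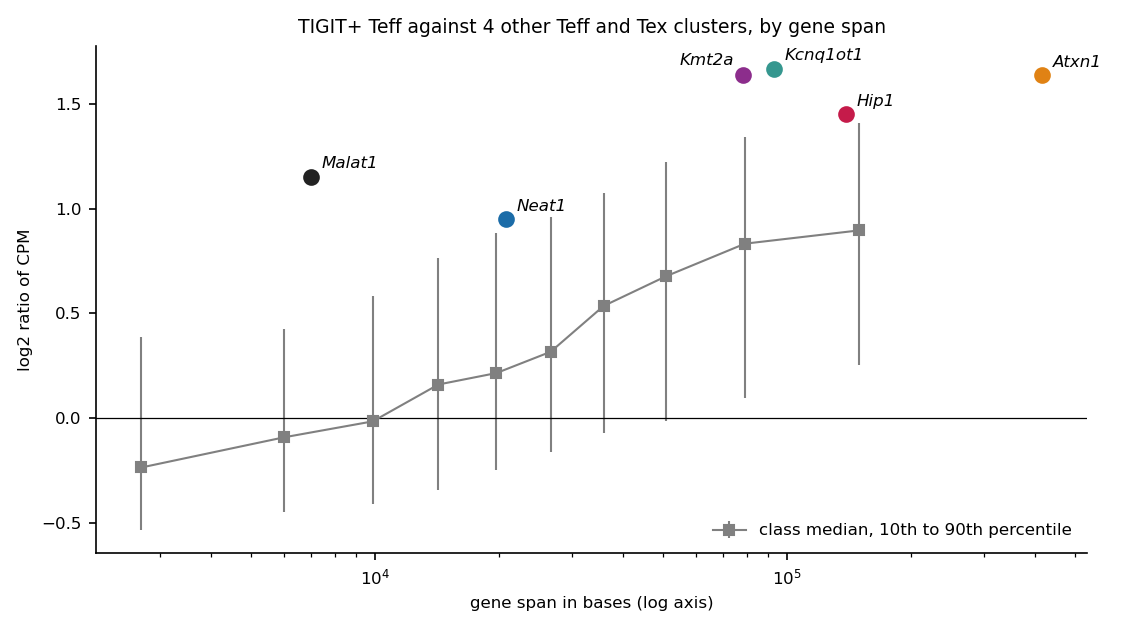
Log2 ratio of TIGIT+ Teff to the other 4 Teff and Tex clusters against gene span (log axis). The line joins the medians of 10 span classes, the band runs from the 10th to the 90th percentile, and the labelled points are the 6 members, all above the class median, with Malat1 and Neat1 at shorter spans than the other 4.

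Cells of TIGIT+ Teff differed from each other in mitochondrial share, and all 6 transcripts were higher, per UMI, in sums of the cells with more. Within each library and cluster, cells were ranked by mitochondrial share and divided into 3 equal groups, and levels were taken as CPM of a total without mitochondrial genes. In TIGIT+ Teff the low group had a median of 1.87% mitochondrial UMIs and the high group 5.26%. From the low to the high group Malat1 went from 5550 to 10130 CPM, Neat1 from 96.3 to 178 CPM and Kcnq1ot1 from 82.6 to 297 CPM. Atxn1 went from 162 to 333 CPM, Hip1 from 140 to 274 CPM and Kmt2a from 273 to 567 CPM. All 6 were higher in the high group in 4 of 4 libraries. Each was at least 1.5-fold higher, where 38.6% of 7590 genes were, and the members' median log2 ratio was 1.01 against 0.40 over all genes.

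Cell by cell the relation was weak. Spearman's rho between a transcript's share and the mitochondrial share, given as the range over the libraries of TIGIT+ Teff, was 0.05 to 0.32 for Malat1, 0.12 to 0.29 for Kcnq1ot1, 0.10 to 0.28 for Kmt2a and 0.06 to 0.22 for Atxn1. For Hip1 it was -0.22 to 0.28 and for Neat1 -0.18 to 0.07, so these 2 had no steady direction. For the 5 members other than Malat1 summed it was 0.33 to 0.43. Most cells held few or no UMIs of a single member other than Malat1, and depth enters both measures.

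The levels of the groups are shares of the UMIs in a cell, and the absolute numbers went otherwise. Malat1 went from 55.5 to 43.5 UMIs per cell, Kmt2a from 2.73 to 2.43, Atxn1 from 1.62 to 1.43, Hip1 from 1.40 to 1.18 and Neat1 from 0.963 to 0.766. Kcnq1ot1 was the exception, going from 0.826 to 1.27 UMIs per cell. Kcnq1ot1 also had the largest ratio of the 6 (log2 1.84, 95% interval 1.60 to 2.09), and exceeded 98.9% of its span class in this split. Atxn1, Hip1 and Kmt2a exceeded 64.9%, 58.5% and 74.3% of theirs, while Malat1 and Neat1 exceeded 95.3% and 86.3%. By exonic bases Malat1 exceeded 69.2% and Neat1 43.0% of their classes.

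Cycling cells gave the same directions. With a median of 1.31% mitochondrial UMIs in the low and 3.01% in the high group, Malat1 went from 1842 to 3561 CPM, Kcnq1ot1 from 26.1 to 93.3 CPM and Kmt2a from 83.5 to 220 CPM (log2 ratios 0.95, 1.84 and 1.39). Atxn1, Hip1 and Neat1 had log2 ratios of 1.22, 1.01 and 0.82. All 6 were higher in 4 of 4 libraries and at least 1.5-fold higher in sum, where 25.2% of 7591 genes were. Here the UMIs per cell were also higher in the high group, at 37.0 against 27.7 for Malat1 and 2.28 against 1.25 for Kmt2a.

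In the other 6 clusters the members' medians were smaller, from -0.03 in transitory Teff to 0.33 in Tcm. Kcnq1ot1 was the member with the largest ratio in 4 of them, at 1.45 in GzmA+ Tex, 0.97 in transitory Teff, 0.74 in GzmB+ Teff and 0.54 in TIM-3+ Tex, but -0.02 in Tn. In transitory Teff 4 of the 6 members were below 0, Hip1 (-0.40), Neat1 (-0.31), Malat1 (-0.05) and Atxn1 (-0.01). In TIM-3+ Tex Atxn1 (-0.25), Hip1 (-0.23) and Neat1 (-0.01) were, and in GzmB+ Teff Hip1 (-0.58) and Atxn1 (-0.21).

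**Figure D4:**
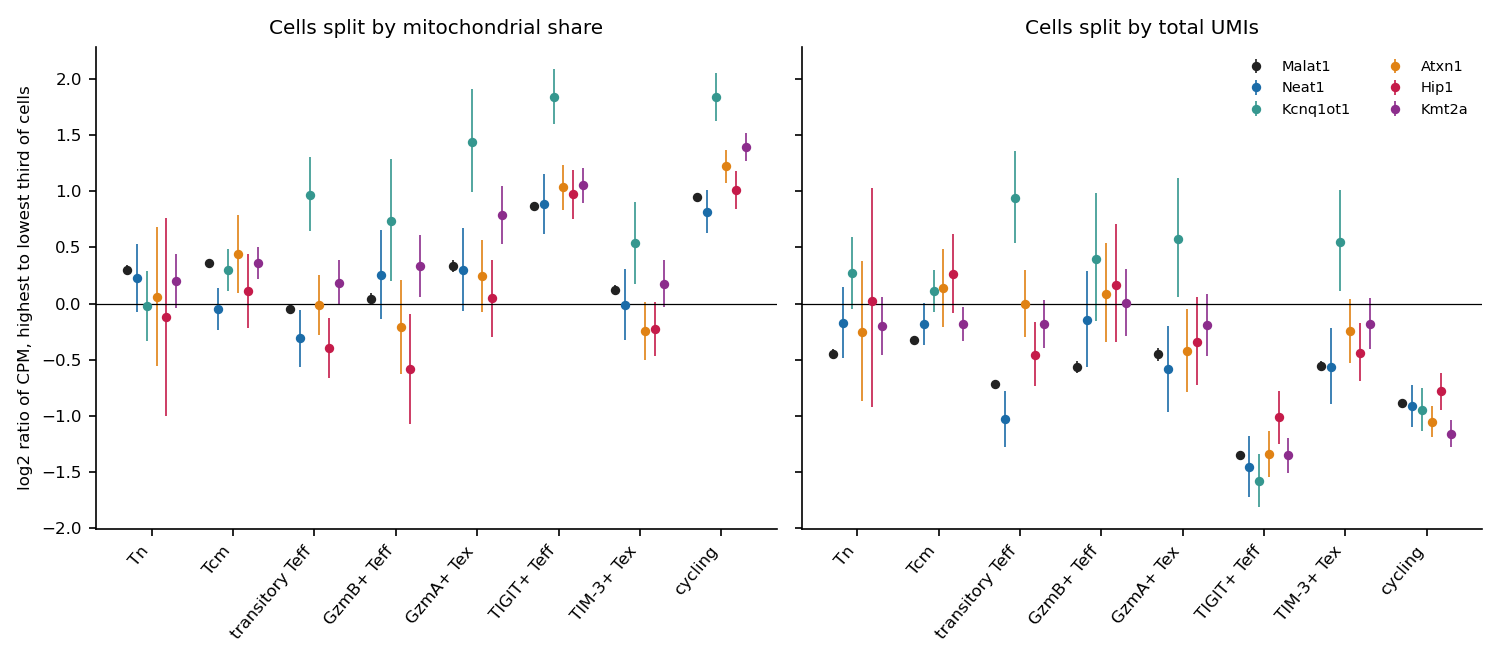
Log2 ratio of the high to the low group of cells for each member in each cluster, with cells split by mitochondrial share in one panel and by total UMIs in the other, libraries summed. TIGIT+ Teff and cycling cells lie above 0 for the mitochondrial split and below 0 for the UMI split for all 6 members, and most values of the other clusters lie nearer to 0.

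The number of UMIs per cell divided TIGIT+ Teff in the opposite direction. The low group had a median of 2976.5 UMIs and the high group 13218. Malat1 went from 12919 CPM in the low to 5075 CPM in the high group, Neat1 from 227 to 82.5 CPM and Kcnq1ot1 from 310 to 103 CPM. Atxn1 went from 373 to 147 CPM, Hip1 from 268 to 132 CPM and Kmt2a from 675 to 264 CPM. All 6 were lower in the high group in 4 of 4 libraries. Each was at least 1.5-fold lower, where 46.9% of 7590 genes were, and the members' median log2 ratio was -1.35 against -0.52 over all genes. Counted per cell, cells with more UMIs held more of these transcripts, with 70.7 against 38.0 UMIs of Malat1 and 3.68 against 1.99 of Kmt2a.

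Cell by cell, rho between a transcript's share and the UMI number in TIGIT+ Teff was -0.61 to -0.43 for Malat1, -0.50 to -0.21 for Kmt2a and -0.27 to -0.17 for Atxn1 over the libraries. It crossed 0 for Neat1 (-0.15 to 0.05), Kcnq1ot1 (-0.23 to 0.07) and Hip1 (-0.12 to 0.18).

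In cycling cells the log2 ratios of the UMI split lay between -1.16 (Kmt2a) and -0.78 (Hip1), and 5 of the 6 members were lower in 4 of 4 libraries, the exception being Kcnq1ot1, whose value was 1.06 in library 4. Kcnq1ot1 was higher in the high group of transitory Teff (0.94), GzmA+ Tex (0.58), TIM-3+ Tex (0.55), GzmB+ Teff (0.40), Tn (0.27) and Tcm (0.11). Malat1 was lower in the high group over all clusters, with a log2 ratio of -0.60. Mitochondrial share and UMI number moved together with the members in TIGIT+ Teff, and their part in the difference between clusters was not tested.

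Values at matched UMI number or mitochondrial share are therefore given beside the contrast. Among cells with 2500 to 4000 UMIs (290 in TIGIT+ Teff and 643 in the other 4 clusters) the members' log2 ratios ran from 1.23 to 3.49, with a median of 2.07. The highest was that of Kcnq1ot1, at 284 against 25.2 CPM. Among cells with 10000 to 25000 UMIs (222 and 1256 cells) they ran from 0.69 to 1.13, with a median of 1.03. All 6 members were thus higher in TIGIT+ Teff in both ranges, and the ratio was larger among cells with few UMIs. Among cells with 0% to 1.5% mitochondrial UMIs (53 and 1358 cells) the median was 1.24, with 0.58 as the lowest, and among cells with 2% to 2.5% (146 and 831 cells) it was 1.01. Among cells above 5% (152 and 23 cells) it was 0.89. There Kcnq1ot1 stood at 417 CPM in TIGIT+ Teff and 377 CPM in the other 4 clusters, a log2 ratio of 0.15 (95% interval -0.35 to 0.67). Hip1 had a log2 ratio of 0.37 (-0.30 to 1.10). With 23 cells in the other 4 clusters, neither interval excluded 0. In the same cells Malat1, Neat1, Atxn1 and Kmt2a had log2 ratios of 0.82, 1.23, 1.13 and 0.95, with intervals above 0.

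**Figure D5:**
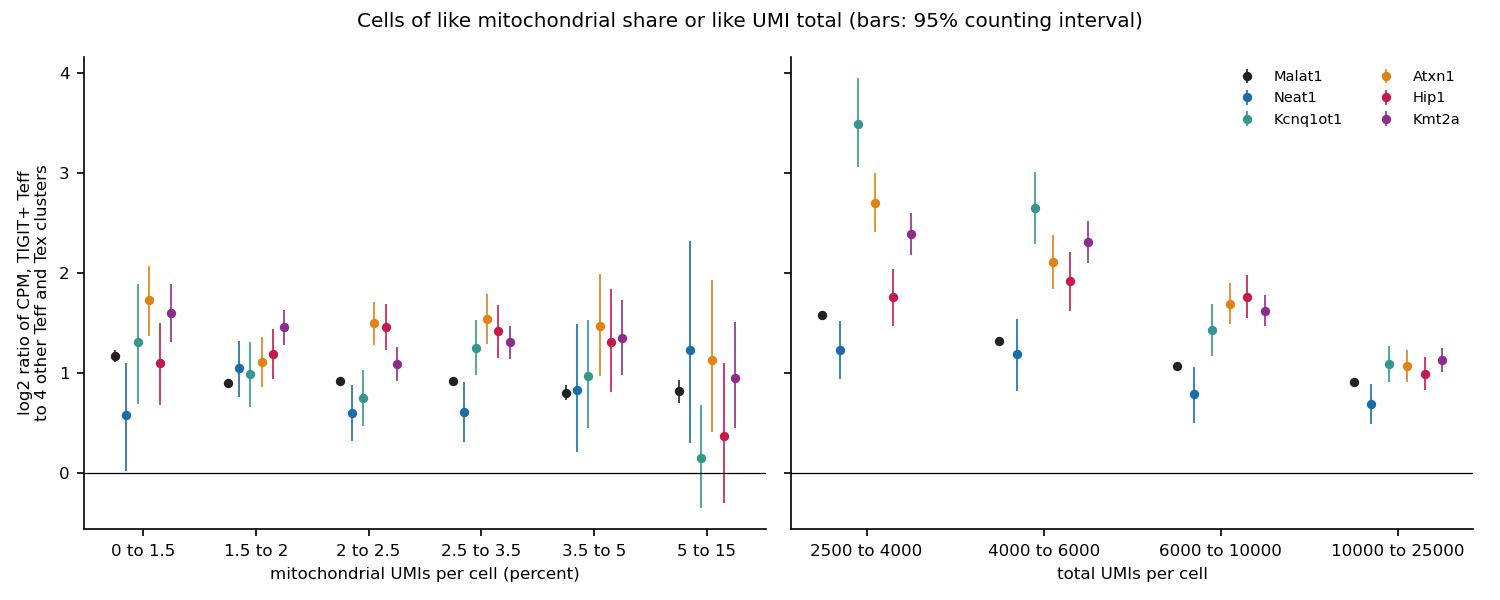
Log2 ratio of TIGIT+ Teff to the other 4 Teff and Tex clusters for each member among cells of like mitochondrial share in one panel and like UMI number in the other, with 95% counting intervals. The ratios stay above 0 in every range, the medians are lowest above 5% mitochondrial UMIs and above 10000 UMIs in their panels, and for Kcnq1ot1 come near 0 above 5% mitochondrial UMIs.

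The members also varied together from cell to cell. When the cells of TIGIT+ Teff were ranked by Malat1 share and divided into 3 equal groups, Neat1 went from 81.7 CPM in the low to 194 CPM in the high group, Kcnq1ot1 from 99.0 to 287 CPM and Kmt2a from 258 to 620 CPM. Atxn1 went from 152 to 342 CPM and Hip1 from 140 to 272 CPM. The high group had a median of 3.97% mitochondrial UMIs and 3453 UMIs, against 2.53% and 9438 in the low group, so depth and mitochondrial share moved with the split. In cycling cells the log2 ratios were 1.33 to 1.66, and in Tn they were 0.12 to 0.75. Per cell, Spearman's rho between Malat1 and the other 5 members summed was 0.42 to 0.47 over the libraries in TIGIT+ Teff, 0.35 to 0.68 in cycling cells and 0.03 to 0.13 in Tn. Cells of 1 library share their preparation and depth enters both measures, so these are descriptions.

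The difference was also present when only cells of clones found on both sides of the contrast were summed. Of the clones with a called receptor, 68 held cells both in TIGIT+ Teff (207 cells) and in the other 4 Teff and Tex clusters (1079 cells). Malat1 stood at 8164 CPM in the former and 3231 CPM in the latter, and Kmt2a at 482 against 107 CPM. Summed over libraries, the log2 ratios were 1.34 for Malat1, 1.25 for Neat1, 2.06 for Kcnq1ot1, 2.01 for Atxn1, 1.73 for Hip1 and 2.17 for Kmt2a. These sums mix the libraries and the clones unequally, and no ratio was taken within a single clone. Libraries 1 to 4 gave 97, 8, 84 and 18 TIGIT+ Teff cells, against 495, 152, 114 and 318 other cells. Within libraries 1 to 4 Malat1 was at 1.32, 0.77, 1.11 and 1.12, all below its summed value. Kcnq1ot1 was at 2.20, 2.14, 2.30 and 2.27, all above its summed value. In single libraries all values but 1 were above 0, the exception being Neat1 in library 2 (-0.10), which rested on 8 TIGIT+ Teff cells.

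Within TIGIT+ Teff, cells with a called receptor (364) held higher levels of all 6 than cells without (452), in 4 of 4 libraries. In libraries 2 and 4 the differences of Neat1, Atxn1, Hip1 and Kmt2a lay within counting error, as did that of Hip1 in library 3. The levels were 8533 against 5849 CPM for Malat1, 152 against 90.1 CPM for Neat1, 203 against 113 CPM for Kcnq1ot1, 277 against 168 CPM for Atxn1, 206 against 151 CPM for Hip1 and 460 against 300 CPM for Kmt2a. In cycling cells the order was the opposite for all 6 in sum, for example 2151 CPM of Malat1 with and 2667 CPM without a called receptor. For Neat1 the values of 53.1 and 54.5 CPM lay within counting error. Malat1, Atxn1 and Hip1 kept this order in each library, but the others did not. In library 1, Neat1 (65.1 with and 58.6 CPM without), Kcnq1ot1 (59.5 and 55.9 CPM) and Kmt2a (148 and 139 CPM) were higher with a called receptor. So was Neat1 in library 3 (65.8 and 65.2 CPM), and these reversals lay within counting error.

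Across the 32 combinations of cluster and library, likeness between genes was described with Pearson's r of log2(CPM + 1) over 5675 genes with at least 20 CPM. Atxn1 and Hip1 were most alike among the members (r = 0.96), followed by Malat1 with Kmt2a (0.88) and Malat1 with Neat1 (0.87). Kcnq1ot1 was least like Hip1 (0.26) and Atxn1 (0.27). The nearest genes of Malat1 were Mbnl1 (0.94), a splicing regulator, Chd2 (0.94), a chromatin remodeller, and Tnrc6b (0.93), a partner of Argonaute in microRNA silencing. Those of Kmt2a were Tnks2, Erbin and Cyld, each at 0.96, where Tnks2 is a tankyrase and Cyld a deubiquitinase. Those of Kcnq1ot1 were Smg1 (0.94), a kinase of nonsense-mediated decay, Rlim (0.92), a ubiquitin ligase, and Kmt2c (0.92), a relative of Kmt2a. Those of Neat1 were Ccdc88c (0.91), Rassf2 (0.90) and Ahnak (0.89). Fam129a (0.97), Hip1 (0.96) and the integrin chain Itga4 (0.96) came nearest to Atxn1, and Nsmaf (0.97), Fam129a (0.97) and Trps1 (0.96) to Hip1. The 10 nearest genes had a median span of 104222 bases for Malat1 and 27411 for Kcnq1ot1, against 23027 over expressed genes. Those of Kcnq1ot1 include mitochondrial transcripts of 684 to 1144 bases (r = 0.90 to 0.91), which count toward that median. The groups of 1 library or cluster share cells or depth, and every r rests partly on the height of TIGIT+ Teff.

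The genes that work with the members were read from lists by role. In the MLL and COMPASS complexes, which methylate histone H3, 6 of 16 genes were at least 2-fold higher in TIGIT+ Teff than in the other 4 Teff and Tex clusters and none lower, with a median log2 ratio of 0.86. Over all genes tested 13.8% were 2-fold higher and the median was 0.30, and each of the first 3 lists holds a member chosen for its high value. The lists were not matched for length, and the longest span class had a median of 0.90 in the same contrast. Beside Kmt2a the 6 genes of these complexes included Hcfc1 (91.6 against 30.5 CPM), Kmt2d (82.6 against 27.6 CPM) and Kmt2c (119 against 42.1 CPM), which spans 226986 bases. Kmt2d and Kmt2c encode methyltransferases of the same family and were at least 2-fold higher in each library. Among ataxins and Capicua, 3 of 9 tested genes were 2-fold higher (median 0.91): Atxn1, Atxn7 (51.9 against 22.8 CPM) and Cic, which encodes Capicua, the partner of ataxin-1 (59.99 against 28.9 CPM). Among genes of clathrin endocytosis 3 of 15 were (median 0.56): Hip1, Cltc, the clathrin heavy chain (172 against 71.4 CPM), and Picalm, a clathrin assembly protein (118 against 49.3 CPM). Without Hip1 the clathrin share is near that of all genes.

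Few genes for proteins of the nuclear bodies passed 2-fold, which 13.8% of all genes did, although both medians lay above that of all genes. Among 15 paraspeckle proteins 1 was 2-fold higher, Matr3 (121 against 58.1 CPM), with a median of 0.62, and among 18 nuclear speckle proteins none was, with a median of 0.41, beside 0.30 over all genes. Of 18 listed nuclear noncoding RNAs 10 were in the table and 6 passed 10 CPM, and 4 of these were 2-fold higher. They were Malat1, Kcnq1ot1, Tug1 (46.4 against 18.4 CPM, although its log2 ratio was -0.12 in library 2) and Pvt1 (35.1 against 16.04 CPM). The 6 tested include Malat1, Neat1 and Kcnq1ot1, which were chosen for their high values, so the count says little about nuclear RNAs as a class. The genes next to the members on the chromosomes were mostly flat, with 2 of 13 tested at least 2-fold higher, Ube4a near Kmt2a (48.6 against 20.01 CPM) and Pom121 near Hip1 (58.3 against 28.1 CPM), and a median of 0.21, again a share near the 13.8% of all genes.

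Short cytosolic transcripts stood lower. The 16 listed genes had a median log2 ratio of -0.41 and summed to 71826 CPM in TIGIT+ Teff (67057 to 80194 over libraries), against 90463 to 96325 CPM in the other 4 clusters, although none was 2-fold lower. Actb was at 11409 against 11857 CPM and Tmsb4x at 9556 against 12981 CPM. The 12 mitochondrial transcripts summed to 29555 CPM against 17449 to 20626 CPM, with a median of 0.67. The 8 CD8 T cell markers had a median of -0.05 and the 5 tested NK cell markers 0.06, with none past 2-fold. Of 9 tested macrophage markers 6 were at least 2-fold lower, among them Lyz2 (6.70 against 54.8 CPM), Apoe (12.2 against 52.9 CPM) and Cd74 (23.8 against 97.8 CPM). GzmA+ Tex, which was part of that comparison, had the highest summed level of these markers, at 2134 CPM. All 12 summed to 436 CPM in TIGIT+ Teff, against 303 CPM in transitory Teff, 229 CPM in GzmB+ Teff and 424 CPM in TIM-3+ Tex. The sum in TIGIT+ Teff was thus not low beside these clusters. Of the plasma and B cell markers 3 were tested and none passed 2-fold, and no erythroid or neutrophil marker reached 10 CPM.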

How the data were processed

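The authors aligned single-cell libraries of sorted CD8+ T cells with Cell Ranger 7.00 (mm10), aggregated them to like read depth and kept cells with 2500 to 25000 UMIs, under 15% mitochondrial RNA, and Cd3e or Cd3g and Cd8a. They deposited raw counts of UMIs per gene and cell, and a table with each cell's library, cluster name and mitochondrial fraction. Whether introns were counted is not given in the sources used here. Doublets were not removed further.

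From these, counts were summed per cluster and library and divided by the total (CPM), with exact Poisson 95% intervals for levels, conditional binomial ones for ratios and Clopper-Pearson ones for shares (Python 3.11.15, numpy 2.4.6, scipy 1.17.1, pandas 2.3.3, matplotlib 3.10.9). Cells are not replicates and each treatment was 1 pool, so no test was run. Thinning to 2500 UMIs used seed 7. The ratio step was tested on simulated data. Genes needed 10 CPM over all cells. The members and lists were chosen with earlier results of these data known. Named were the 6 members, the 3 genes most like each, up to 4 genes per list at least 2-fold apart, by size, Actb and Tmsb4x, with Lyz2 as a defining marker. The alternatives were another cluster labelling, cell weighting, other totals, other sets of cells and leaving out libraries. Those by mitochondrial range, UMI range, called receptor, lack of Mki67, Top2a and Birc5, or equal library weight were added after seeing the data.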

Additional observations from a re-analysis of the deposited data

Results flagged for a closer look

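Hip1 went in opposite directions with mitochondrial share in different clusters. In GzmB+ Teff its log2 ratio of the high to the low group of cells was -0.58 (-0.23, -1.26, -0.48 and -0.48 in libraries 1 to 4), whereas it was above 0 in all 4 libraries of TIGIT+ Teff. The difference was not tested. Kcnq1ot1 did so with UMI number. In transitory Teff its log2 ratio of the high to the low group was 0.94 (1.70, 1.12, 0.02 and 0.58 in libraries 1 to 4), whereas it was below 0 in all 4 libraries of TIGIT+ Teff. That difference was not tested either.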

How the results depend on the processing

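The members' median log2 ratio of TIGIT+ Teff to the other 4 Teff and Tex clusters, 1.55 as reported, was 1.83 after thinning to 2500 UMIs and 1.87 with equal weight per cell. Without cells holding macrophage or plasma and B cell markers other than Cd74, Xbp1 and Ctsb it was 1.88, with 362 TIGIT+ Teff cells left. The median was 2.02 among cells with a called receptor, 1.87 among cells with 4000 to 8000 UMIs and 1.64 among cells without UMIs of Mki67, Top2a and Birc5. It was 1.11 among cells with 1.5% to 2.5% mitochondrial UMIs, where 3 rather than 5 members were at least 2-fold higher, and 1.25 with equal weight per library. Leaving out 1 library gave 1.39 (without library 3) to 1.67 (without library 1). Over all clusters, the median of the UMI split was -0.47, and it was -0.68 thinned, -0.71 with equal weight per cell, -0.82 between the highest and lowest 10% of cells and -0.62 to -0.36 without 1 library. The median of the mitochondrial split was 0.43, and it was 0.59, 0.58, 0.68 and 0.35 to 0.52 in the same order. The longest span class exceeded the shortest by 1.13, and by 1.31 with exonic bases. The cause of these shifts was not tested. None of 210 values of single members under these alternatives changed direction. Many of these values share cells, and the alternative without the filter on low counts left the members' own values as reported. Without the filter on low counts, 18.3% of 16412 genes were at least 2-fold higher in TIGIT+ Teff. No paired analysis of treatments was possible because each treatment was 1 sample and the library numbers carry no pairing. The main contrast between clusters was also given within each library. The number of cells (31) limits Kcnq1ot1 in TIM-3+ Tex of library 3, and the number of cells (50 and 59) widens the intervals of the members other than Malat1 in TIGIT+ Teff of libraries 2 and 4.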
